A study of Mus musculus with 6 samples.

Results

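The genes described here encode the proteins of the cytosolic ribosome. They were taken by symbol from the deposited gene list as Rpl or Rps followed by a number and at most 1 letter, with Rplp0, Rplp1, Rplp2 and Rpsa, and with pseudogene symbols ending in -ps dropped. This gave 81 of 24421 listed genes, 49 of the large subunit and 32 of the small subunit, and 5 of the 81 are paralogs of other members (Rpl3l, Rpl10l, Rpl39l, Rps4l and Rps27l). RNA was sequenced from oligodendrocyte progenitor cells (OPCs), the precursors of the myelin-forming cells of the brain, isolated from cortices of C57BL/6J mice at postnatal day 4 (P4). The knockout libraries (n = 3) carry 2 floxed alleles of Prrc2b together with Olig2-Cre (Prrc2bf/f; Olig2-Cre), and the control libraries (n = 3) carry the same floxed alleles with no Cre named (Prrc2bf/f). Cre recombinase was thus driven by Olig2, a transcription factor of the oligodendrocyte lineage, and no library with Olig2-Cre alone was given, so an effect of the Cre allele cannot be told apart from loss of Prrc2b. The study asked how loss of Prrc2b, an RNA-binding protein gene, affects the cells in which myelination starts.

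The cells were panned on dishes coated for GalC and then for O4 and were cultured in proliferation medium, although the series' design text speaks of brain tissue. Each library held 26015604 to 28114968 read pairs assigned to genes. The labels do not say that replicates came from separate animals or cultures, so p-values measure the spread between these 6 libraries, which may be technical. Prrc2b had 649, 824 and 757 CPM in the knockout libraries, against 932, 1111 and 925 CPM in the control libraries. CPM is a gene's count relative to the library's total over all genes, here after TMM scaling, edgeR's correction for library composition. Every knockout library was below every control library for Prrc2b, with a log2 fold change of -0.41 (adjusted p = 1.00 in edgeR's quasi-likelihood test by genotype alone, and 0.00688 with the replicate number as a block). A whole-gene count includes exons outside the deleted part, and the position of the loxP sites is not stated in the labels. In bulk RNA, fewer cells of a type and less RNA per cell cannot be told apart.

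As background, each cytosolic ribosome joins a small subunit, which reads the mRNA, and a large subunit, which forms the peptide bonds and passes the new chain out through a tunnel. Nearly every ribosomal protein is present in a single copy per ribosome, and surplus free proteins are degraded. Their mRNAs belong to the TOP class: transcription starts at a C followed by a run of pyrimidines, through which growth signalling controls their translation together. Myelinating cells make large amounts of membrane protein and lipid, and mutations in several human ribosomal protein genes cause Diamond-Blackfan anaemia.

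The start sites of the members showed this motif in part, and a few promoter windows are printed because they bear the shared feature of genes that moved together or did not. Of the members other than the paralogs, 56 had a RefSeq promoter (GRCm38.p6), and 12 of these 56 (21.4%) had a C at the annotated start followed by at least 4 pyrimidines. The same was true of 661 of 26965 other promoters (2.45%). In the windows below, from 40 bases before to 20 bases from the annotated start, the pyrimidine run at or next to the start is in capitals. Rplp2 (chr7:141447611-141447670, plus strand), Rps21 (chr2:180257339-180257398, plus strand) and Rps10 (chr17:27635225-27635284, minus strand) were lower in knockout in the paired fit described further on. Rps28 (chr17:33824543-33824602, minus strand) was lower as well and has only a short run at this annotated start. Rps6 (chr4:86857348-86857407, minus strand) and Rpl15 (chr14:18270967-18271026, minus strand) did not pass the test, although Rpl15 has a run of 17 pyrimidines.
Rplp2: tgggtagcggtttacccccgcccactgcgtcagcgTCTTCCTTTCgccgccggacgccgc
Rps21: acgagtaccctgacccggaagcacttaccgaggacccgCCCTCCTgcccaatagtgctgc
Rps10: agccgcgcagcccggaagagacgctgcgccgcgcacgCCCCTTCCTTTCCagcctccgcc
Rps28: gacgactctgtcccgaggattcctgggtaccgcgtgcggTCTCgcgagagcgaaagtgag
Rps6: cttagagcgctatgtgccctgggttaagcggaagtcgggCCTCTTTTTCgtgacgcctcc
Rpl15: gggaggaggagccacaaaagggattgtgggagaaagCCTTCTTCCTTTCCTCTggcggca

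The Rps21 and Rps10 windows also hold CCGGAAG, a core bound by ETS-family factors. Searched on both strands from 100 bases before to 50 bases after the start, CCGGAAG was in 28.6% of the members' promoters and in 6.84% of the other promoters. In that wider region Rps6 and Rpl15, which were not called, had it too, and Rplp2 and Rps28, which were called, did not. AAGATGGC, the core of the YY1 motif, was in 7.14% of the members' promoters and in 1.84% of the others, CACGTG was in 3.57% and 4.42%, and TATAAA was in 8.93% and 7.28%. The letters were searched in annotated windows, so a missing match says only that they are not in that window. Called genes were found with either kind of start. Among members of at least 5 CPM with a promoter, 3 of 11 with the C and pyrimidine start were called lower in the paired fit (median log2 fold change -0.09), and so were 7 of 42 with another start (median -0.10).

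Summed over all 81 genes, ribosomal protein mRNAs took overlapping shares of the gene counts in the 2 genotypes. The share was 1.63%, 1.78% and 1.76% in the knockout libraries, against 1.76%, 1.92% and 1.76% in the control libraries, which is 1.72% ± 0.0814 against 1.81% ± 0.0957 (SD, n = 3 each). The groups overlapped, and the third pair of libraries with the same replicate number had nearly equal shares. Large-subunit genes gave 1.01% ± 0.046 of the counts in knockout and 1.06% ± 0.0544 in control libraries. Small-subunit genes gave 0.714% ± 0.0358 in knockout and 0.7496% ± 0.0414 in control libraries. The ratio of large-subunit to small-subunit counts was 1.43, 1.42 and 1.40 in the knockout libraries and 1.43, 1.41 and 1.42 in the control libraries, so the ranges of the 2 genotypes overlapped.

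Of the 81 members, 76 passed edgeR's filter on low counts (44 large-subunit and 32 small-subunit genes), among 15906 genes tested. With genotype as the only term, edgeR's quasi-likelihood test called no member and no other gene at an adjusted p under 0.05 (0% of all tested genes), and neither DESeq2 nor limma-voom called a member in that design. In that fit 7 members had an unadjusted p under 0.05, all of them lower in knockout, where 0.962% of all tested genes were lower and 0.761% were higher at that level. The members' log2 fold changes nevertheless leaned one way: 70 of 76 were negative, with a median of -0.10, against a median of 0.00 over all tested genes.

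Libraries of the same replicate number deviated together from their group means, with correlations over the members of 0.476, 0.652 and 0.645 for the 3 pairs. Libraries of different numbers gave -0.80 to 0.23 over the members. Deviations from a group mean cancel out within each gene, so values for different numbers are no independent contrast to those of the pairs. Over all tested genes, which were used to decide on a block, the 3 pairs gave 0.712, 0.682 and 0.654, and different numbers gave -0.41 to -0.22. The replicate number was therefore also fitted as a block, and with the block 13 of the 76 tested members were called lower in knockout and none higher. The block called 2.23% of all tested genes lower and 1.57% higher. The 13 were Rpl13, Rpl36, Rplp2, Rpl27a, Rpl17, Rpl13a and Rpl18 of the large subunit, and Rps28, Rps29, Rps21, Rps26, Rps2 and Rps10 of the small subunit. In simulated data the blocked fit, with 2 residual degrees of freedom, made more false calls than its nominal rate, so its adjusted p-values may be too small. At an unadjusted p under 0.05, 35 of 76 members were lower and 1 was higher with the block, against 9.5% of all tested genes lower and 8.69% higher at that level. DESeq2 with the block called 13 members lower, of which 10 were among the 13 named above. Limma-voom with the block called 14 lower, which included all 13. These tools called 2.37% and 2.62% of all tested genes lower, and neither called a member higher.

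The shifts were small. The median log2 fold change with the block was -0.12 for the large subunit and -0.10 for the small subunit, and 71 of the 76 members were negative where 49.4% of all tested genes were. The knockout library was the lower one in all 3 same-numbered pairs for 43 of 76 members (28 large-subunit and 15 small-subunit genes), against 20.9% of all tested genes. It was the higher one in all 3 pairs for Rps6 alone, against 19.7% of all tested genes. All 3 knockout libraries lay below all 3 control libraries for 20 members (13 large, 7 small), against 3.6% of all tested genes, and the opposite held for no member, against 2.75%. The pairs were not equal: the median log2 ratio of large-subunit genes was -0.14, -0.15 and -0.04 in pairs 1, 2 and 3, and that of small-subunit genes was -0.12, -0.16 and -7.1e-05.

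**Figure D1:**
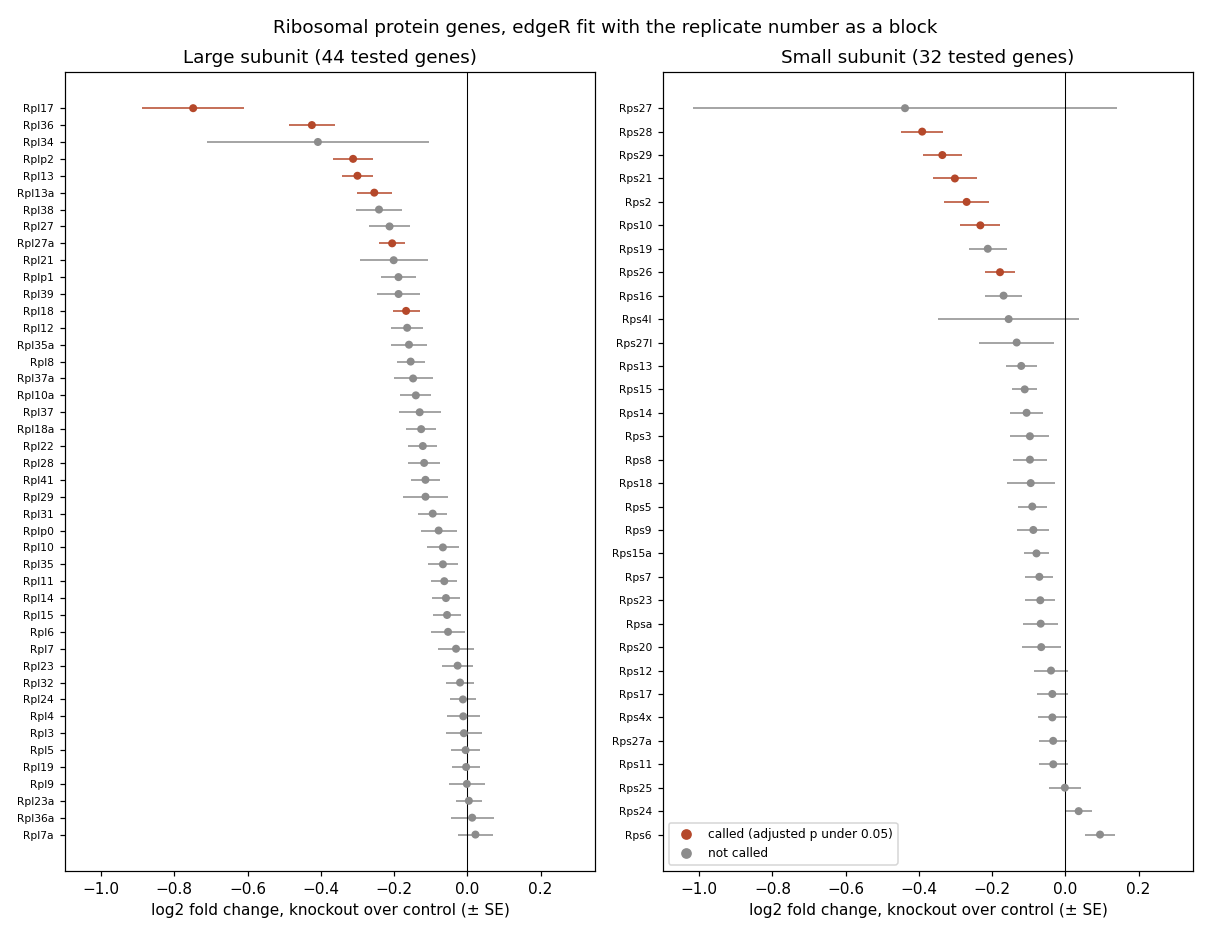
Log2 fold change (knockout over control, ± SE) of each tested ribosomal protein gene in the edgeR fit with the replicate number as a block, with the large subunit on the left and the small subunit on the right, sorted from most negative at the top. Most points lie left of 0, the 13 genes in red passed the test, and Rps27 and Rpl34, which have few counts, have the widest errors.

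Among large-subunit genes, Rpl13, a protein of the large-subunit surface, had the smallest adjusted p. It had 274, 280 and 297 CPM in the knockout libraries, against 363, 341 and 344 CPM in the control libraries. All knockout values lay below all control values, with a log2 fold change of -0.30 (SE 0.04, adjusted p = 0.00907 in edgeR with the block). The gene lies at chr8:123102350-123105244 (plus strand, GRCm38). Rpl36, another large-subunit protein (chr17:56613416-56614243, plus strand), had 87.4, 94.3 and 101 CPM in the knockout libraries, against 128, 131 and 120 CPM in the control libraries. The groups did not overlap, and the log2 fold change was -0.42 (SE 0.06, adjusted p = 0.0104). Rpl36 has the highest transcript GC content of the tested members, 60.8%, and with a correction for GC content its log2 fold change was -0.27 (adjusted p = 0.0619).

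Rplp2 (chr7:141447370-141451585, plus strand) is one of the acidic proteins of the P-stalk, the flexible arm of the large subunit that recruits elongation factors. It had 123, 144 and 142 CPM in the knockout libraries, against 168, 178 and 161 CPM in the control libraries. Every knockout library was below every control library, and the log2 fold change was -0.31 (SE 0.05, adjusted p = 0.0174). Its stalk partner Rplp1 had 224, 224 and 261 CPM in knockout, against 263, 272 and 270 CPM in control, again without overlap, and missed the threshold (log2 fold change -0.19, SE 0.05, adjusted p = 0.0619). Rplp0, which anchors both to the ribosome, had 563, 624 and 649 CPM in knockout and 612, 691 and 634 CPM in control, with overlapping groups (log2 fold change -0.08, adjusted p = 0.462). So 1 of the 3 stalk genes was called lower, beside 13 of all 76 tested members and 2.23% of all tested genes.

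Rpl27a had 185, 208 and 192 CPM in the knockout libraries, against 218, 239 and 217 CPM in the control libraries, and the groups were apart (log2 fold change -0.21, SE 0.04, adjusted p = 0.0176, and 0.0873 without pair 3). Rpl18, a gene mutated in some patients with Diamond-Blackfan anaemia, had 233, 233 and 222 CPM in knockout and 267, 268 and 239 CPM in control (log2 fold change -0.17, SE 0.04, adjusted p = 0.0391). The groups of Rpl18 did not overlap either, but leaving out any 1 pair gave adjusted p-values of 0.127, 0.109 and 0.106. Fits without a pair have fewer residual degrees of freedom, so their adjusted p-values are less certain than those of the full blocked fit. Rpl13a, whose human protein can leave the ribosome and silence inflammatory mRNAs, had 221, 248 and 228 CPM in knockout and 283, 304 and 246 CPM in control. Here knockout replicate 2 lay just above control replicate 3, and the log2 fold change was -0.25 (SE 0.05, adjusted p = 0.0243, and 0.0737 without pair 1).

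Rpl17, which lines the tunnel of the nascent chain, had the most negative log2 fold change of all members, and its values varied widely between replicates. It had 46.5, 112 and 54.9 CPM in the knockout libraries, against 56.6, 181 and 132 CPM in the control libraries. The groups overlapped, and the knockout library was the lower one in each pair, with log2 ratios of -0.28, -0.68 and -1.26. The fitted log2 fold change was -0.75 (SE 0.14, adjusted p = 0.0233 in edgeR with the block, and 0.114 in DESeq2 with the block). Rpl17 has 25 near-identical copies in the annotated genome, and whether reads were split between them was not tested.

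**Figure D2:**
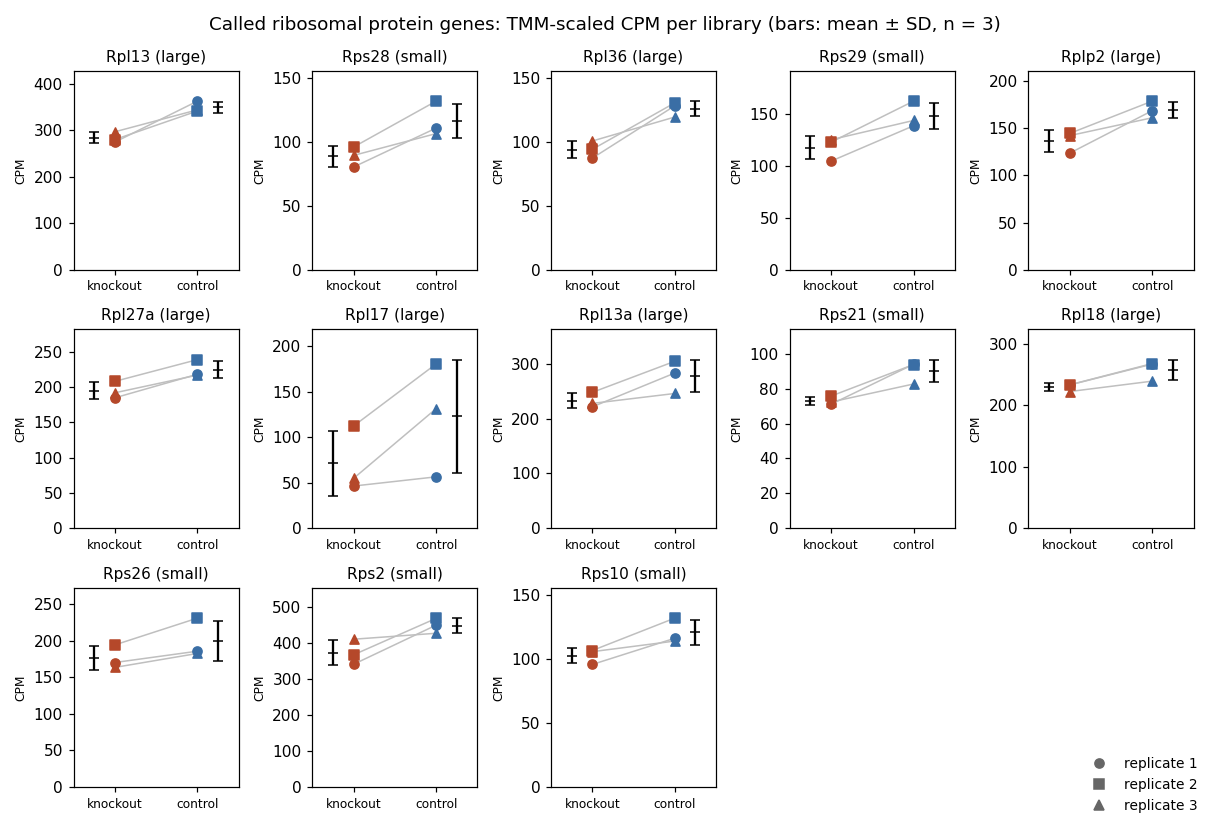
TMM-scaled CPM of the 13 called genes in each library, with knockout on the left and control on the right of each panel, lines joining libraries of the same replicate number, and bars giving mean ± SD (n = 3). In every pair the knockout value is below the control value, and Rpl17 has the widest spread between replicates of a genotype.

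Other large-subunit genes chosen by their role did not pass. Rpl5 and Rpl11, which carry the 5S rRNA and can bind the p53 regulator Mdm2, had log2 fold changes of -0.00 (SE 0.04, adjusted p = 0.967) and -0.06 (SE 0.03, adjusted p = 0.395). Rpl5 had 360, 422 and 358 CPM in the knockout libraries and 376, 424 and 344 CPM in the control libraries, so its values were nearly matched pair by pair. Rpl3, close to the peptidyl transferase centre, had 481, 550 and 547 CPM in knockout and 507, 573 and 506 CPM in control (log2 fold change -0.01, adjusted p = 0.946). Rpl10, among the last proteins to join the large subunit, had 292, 345 and 332 CPM in knockout and 310, 382 and 324 CPM in control (log2 fold change -0.07, adjusted p = 0.474). For these 4 genes the groups overlapped.

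Rpl38, whose loss in mice impairs translation of a subset of Hox mRNAs, had 64.5, 68.96 and 75.3 CPM in the knockout libraries, against 76.9, 88.6 and 81.2 CPM in the control libraries. The groups did not overlap and the gene missed the threshold (log2 fold change -0.24, SE 0.06, adjusted p = 0.0728). Rpl39, a small protein of the exit tunnel, had 67.6, 70.3 and 76.0 CPM in knockout and 79.8, 83.5 and 80.2 CPM in control, also apart (log2 fold change -0.19, SE 0.06, adjusted p = 0.123). Rpl41, the shortest ribosomal protein, had 269, 270 and 296 CPM in knockout and 298, 304 and 302 CPM in control (log2 fold change -0.11, SE 0.04, adjusted p = 0.164). Rpl22, needed in mice for the development of a class of T cells, had 156, 208 and 196 CPM in knockout and 178, 226 and 204 CPM in control (log2 fold change -0.12, SE 0.04, adjusted p = 0.139). Of the 8 tested proteins that line the tunnel or its exit, Rpl17 was the only one called, beside 13 of all 76 tested members and 2.23% of all tested genes. Of the tested genes just outside the threshold, Rpl8 of the large-subunit core, with no near-identical copy in the annotation, had 384, 376 and 374 CPM in knockout and 427, 435 and 402 CPM in control. Its log2 fold change was -0.15 (SE 0.04, adjusted p = 0.059).

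In the small subunit, the lowest adjusted p-values were those of Rps28 and Rps29, both mutated in some patients with Diamond-Blackfan anaemia. Rps28 (chr17:33819027-33824562, minus strand), which sits near the channel through which mRNA leaves, had 80.4, 96.1 and 89.5 CPM in the knockout libraries, against 111, 132 and 107 CPM in the control libraries. All knockout values were below all control values, with a log2 fold change of -0.39 (SE 0.06, adjusted p = 0.0104 in edgeR with the block). Rps29 (chr12:69157722-69159186, minus strand), a zinc-binding protein of the small-subunit head, had 104, 123 and 125 CPM in knockout and 138, 162 and 144 CPM in control. Its groups were apart too, with a log2 fold change of -0.34 (SE 0.05, adjusted p = 0.0123). Rps21 had 71.0, 75.7 and 72.3 CPM in knockout and 93.9, 93.8 and 82.6 CPM in control (log2 fold change -0.30, SE 0.06, adjusted p = 0.0268). The groups of Rps21 did not overlap, and without pair 1 or pair 2 the adjusted p was 0.107 and 0.0718.

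The remaining called genes of the small subunit lay closer to the threshold. Rps26, which contacts mRNA upstream of the start codon, had 170, 194 and 163 CPM in the knockout libraries and 186, 231 and 182 CPM in the control libraries, with overlapping groups but the lower value in knockout in each pair (log2 fold change -0.18, SE 0.04, adjusted p = 0.0429). Rps2, at the mRNA entry site, had 341, 368 and 411 CPM in knockout and 450, 469 and 428 CPM in control, without overlap (log2 fold change -0.27, SE 0.06, adjusted p = 0.0433). Rps10, of the small-subunit head, had 95.5, 106 and 106 CPM in knockout and 116, 132 and 114 CPM in control, without overlap (log2 fold change -0.23, SE 0.05, adjusted p = 0.0498). Leaving out a pair gave adjusted p-values of 0.147 (pair 2) and 0.157 (pair 3) for Rps26, of 0.183 (pair 1) and 0.114 (pair 2) for Rps2, and of 0.155, 0.155 and 0.0616 (pairs 1, 2 and 3) for Rps10. All 3 genes also missed the threshold when libraries were scaled by their totals.

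Rps19, the gene most often mutated in Diamond-Blackfan anaemia, was just outside the threshold. It had 174, 191 and 208 CPM in the knockout libraries, against 214, 233 and 215 CPM in the control libraries, and the groups did not overlap (log2 fold change -0.21, SE 0.05, adjusted p = 0.055). With DESeq2 and the block its adjusted p was 0.0341, and with the GC correction it was 0.283. Of the 17 tested genes linked to that anaemia in humans, 5 were called lower and none higher, where 13 of all 76 tested members and 2.23% of all tested genes were called lower, and with library totals 2 of the 17 were. Rps6, the target of the S6 kinases, had 319, 344 and 327 CPM in knockout and 305, 336 and 288 CPM in control. Its knockout library was the higher one in each pair, the groups overlapped, and the gene did not pass the test (log2 fold change 0.09, SE 0.04, adjusted p = 0.259).

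Rpsa, which is also known as a laminin receptor precursor, had 504, 571 and 581 CPM in the knockout libraries and 546, 627 and 562 CPM in the control libraries (log2 fold change -0.07, SE 0.05, adjusted p = 0.523). Rps27a, made as a fusion with ubiquitin, had 195, 211 and 214 CPM in knockout and 197, 226 and 212 CPM in control (log2 fold change -0.03, SE 0.04, adjusted p = 0.706). The X-linked Rps4x had 377, 428 and 399 CPM in knockout and 400, 445 and 390 CPM in control (log2 fold change -0.04, SE 0.04, adjusted p = 0.697). The groups overlapped for each of these 3 genes. By position in the small subunit, 1 of 4 genes at mRNA entry and decoding (Rps2) and 2 of 5 at mRNA exit and the platform (Rps26 and Rps28) were called lower. Of all 76 tested members 13 were called lower, and of all tested genes 2.23%, and these small groups were not tested against either.

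The paralogs were low or not called. Rps27l, a p53 target in human cells, had 29.1, 23.7 and 23.0 CPM in the knockout libraries and 34.6, 28.3 and 21.1 CPM in the control libraries (log2 fold change -0.13, SE 0.10, adjusted p = 0.552). Rps4l had 8.30, 7.97 and 13.7 CPM in knockout and 10.4, 12.1 and 10.0 CPM in control (log2 fold change -0.15, SE 0.19, adjusted p = 0.737), and the groups of both genes overlapped. Rpl3l, known from heart and skeletal muscle, had 4, 4 and 18 counts in knockout and 3, 5 and 8 counts in control. Rpl39l, known from testis, had 1, 4 and 0 counts in knockout and none in control, where 0 allows up to 3 counts per library from counting error alone. Rpl10l, also known from testis, was listed at 0 in all 6 libraries, and these 3 paralogs were not tested.

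Several genes of standard ribosomal proteins had almost no counts in either genotype. Rpl26 was listed at 0 in all 6 libraries, and Rpl30 had 2, 1 and 6 counts in the knockout libraries and 6, 2 and 3 counts in the control libraries, so neither was tested. Rps27 passed the filter at 0.569 ± 0.545 CPM in knockout and 0.656 ± 0.230 CPM in control (SD, n = 3 each), and Rpl34 at 1.61 ± 0.308 CPM in knockout and 2.16 ± 0.515 CPM in control. Per kilobase of transcript, the highest levels were those of Rpl41 in the large subunit, 663 CPM per kb over all 6 libraries, and of Rps14 in the small subunit, 617 CPM per kb. The lowest tested levels were those of Rpl34, 3.93 CPM per kb, and Rps27, 1.78 CPM per kb.

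Ribosomal protein genes have many near-identical copies in the genome. In the annotation, 75 of the 81 members had at least 1 other gene with a stretch of 150 bases or more at 95% identity or more, 74 of them a pseudogene. The median was 6 copies per member and the largest number was 62, for Rpl21. Rpl21 had 31.7 ± 6.0 CPM in knockout and 37.1 ± 11.9 CPM in control libraries, or 38.3 CPM per kb. The labels do not say how reads with several equally good positions were treated, so the level of a member with copies is uncertain. The share of read pairs set aside as not uniquely aligned was 3.34%, 3.34% and 3.54% in the knockout libraries and 3.46%, 3.45% and 3.48% in the control libraries. Across 72 members of at least 5 CPM, paralogs left out, the number of copies and the blocked log2 fold change had a Spearman correlation of 0.14, given as a description over genes that share libraries.

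The size of the difference went with the base composition and length of the transcript. Across the same 72 members, the blocked log2 fold change had a Spearman correlation of -0.43 with transcript GC content, 0.32 with transcript length and 0.39 with the mean level in CPM; the genes share libraries and are no independent replicates. Members of at least 55% GC had a median log2 fold change of -0.18, with 6 of 16 called, and those under 55% had a median of -0.07, with 7 of 56 called. Members with transcripts under 600 bases had a median of -0.12, with 6 of 24 called, and longer ones had a median of -0.07, with 7 of 48 called. With a correction of all genes for length, the median over the 76 tested members went from -0.10 to -0.20. The part of length in the shift was not tested. The lean with GC content was also present among all tested genes of at least 5 CPM. For GC of 55% to 60% the median over 2414 such genes was -0.06, and for 60% and over it was -0.16 over 632 genes. The 14 members at 55% to 60% GC had a median of -0.18, and the 33 members at 50% to 55% had -0.09 where the 3175 such genes of that range had -0.01.

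**Figure D3:**
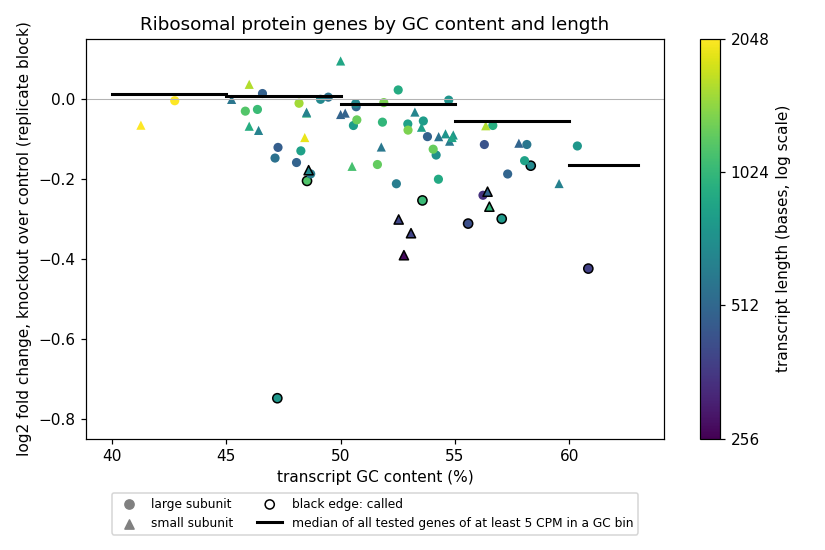
Blocked log2 fold change (knockout over control) of 72 ribosomal protein genes against transcript GC content in percent, with circles for the large and triangles for the small subunit, colour for transcript length and a black edge for called genes. Horizontal bars give the median of all tested genes of at least 5 CPM in each GC range, and most members under 60% GC lie below them.

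With the replicate block and a correction of each library for GC content, 11 members were called lower, 9 of them among the 13, and none higher, against 1.13% of all tested genes called lower and 1.11% called higher. In that fit 74 of 76 members had a negative log2 fold change, as did 54% of all tested genes. The median over the members was then -0.12, where that over all tested genes was -0.01, and the Spearman correlation with GC content was -0.20. Rpl36, Rpl18, Rps2 and Rps10 missed the threshold in that fit. With a correction for transcript length in place of GC, 29 members were called lower, against 2.72% of all tested genes. Scaling by library totals left 9 members called lower, against 1.45% of all tested genes. Without pair 1, 2 or 3, 8, 8 and 12 members were called lower, of which 8, 8 and 9 were among the 13, against 1.06%, 1.68% and 0.702% of all tested genes. A call lost in these smaller fits can also come from their fewer residual degrees of freedom. At an adjusted p under 0.05, Rpl13, Rplp2, Rps28 and Rps29 were called in the blocked edgeR fit, in each of the 10 blocked alternatives of scaling, filter, test or correction, and without any 1 of the pairs. Transcript GC content was 57.1% for Rpl13, 55.6% for Rplp2, 52.8% for Rps28 and 53.1% for Rps29. The part of GC content in their values was not tested.

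**Figure D4:**
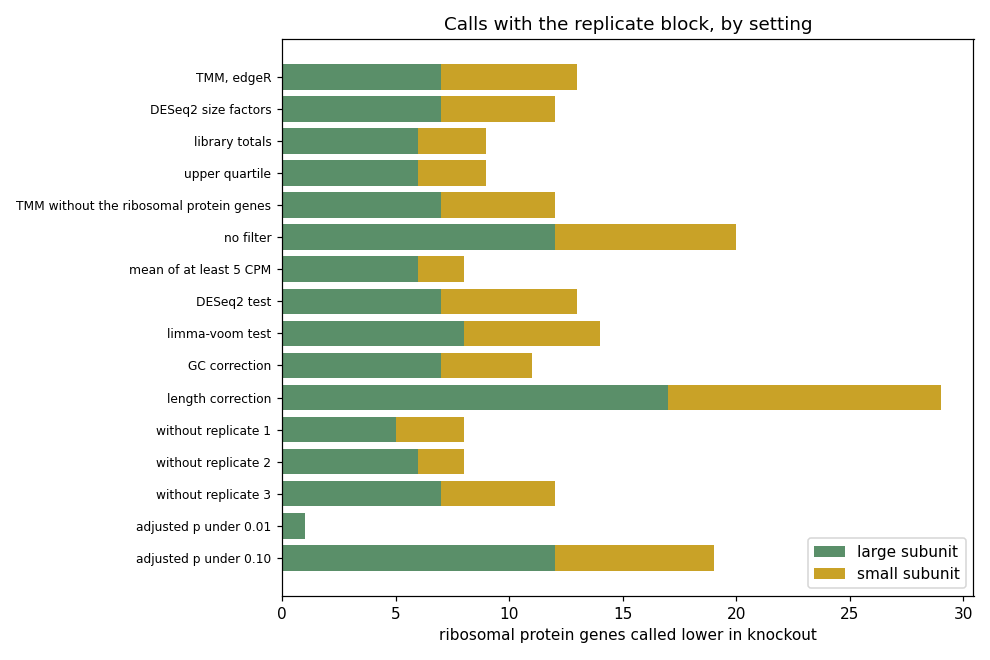
Number of ribosomal protein genes called lower in knockout with the replicate block under each setting, with large-subunit genes in green and small-subunit genes in yellow. The count was 13 with TMM and edgeR, and ranged over the settings from 1 at an adjusted p under 0.01 to 29 with the length correction; no member was called higher under any of them.

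Other genes of the translation machinery were not called by edgeR with the block. None of the 7 tested ribosomal proteins outside the symbol rule passed (median log2 fold change -0.06), and at an unadjusted p under 0.05 there were 2, both lower. Of these, Fau, made as a fusion with a ubiquitin-like protein, had 159 ± 13.1 CPM in knockout and 178 ± 13.0 CPM in control libraries (SD, n = 3 each; log2 fold change -0.17, adjusted p = 0.0772). Rps3a1 had a log2 fold change of -0.03 (adjusted p = 0.747). DESeq2 and limma-voom with the block called none of the 7, and edgeR with the length correction called 2 lower.

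Of 69 ribosome biogenesis factors, edgeR, DESeq2 and limma-voom with the block called none, with a median log2 fold change of -0.04 and 10 at an unadjusted p under 0.05, all lower, where 9.5% of all tested genes were lower at that level. Fbl, the methyltransferase fibrillarin, had 96.0 ± 11.1 CPM in knockout and 111 ± 14.5 CPM in control libraries (log2 fold change -0.20, adjusted p = 0.0734 with the block). Rrp1 had a log2 fold change of -0.13 (adjusted p = 0.0932), and Imp3, of the small-subunit processome, had one of -0.32 (adjusted p = 0.132). Of 16 RNA polymerase I subunits and factors, none was called by the same 3 tools, the median was -0.03 and 2 were lower at an unadjusted p under 0.05, again beside 9.5% of all tested genes. Rrn3, the initiation factor of that polymerase, had a log2 fold change of -0.14 (adjusted p = 0.15).

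Of 29 TOP mRNAs that encode no ribosomal protein, such as translation factors, edgeR with the block called none, DESeq2 called 2 and limma-voom called 1, all lower, and edgeR with the GC or the length correction called 1 each, also lower. Their median log2 fold change was -0.07, and 6 were lower at an unadjusted p under 0.05, beside 9.5% of all tested genes. Eif3f, a subunit of the initiation factor that binds the small subunit, had a log2 fold change of -0.23 (adjusted p = 0.0594, and 0.0461 with the GC correction), Snhg8, a host gene of a small nucleolar RNA, had one of -0.49 (adjusted p = 0.062), and Cct4, of the chaperonin that folds actin and tubulin, had one of -0.16 (adjusted p = 0.0654). The difference between these lists and the ribosomal protein genes was not tested.

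Other features of the libraries moved with genotype, and their part in the ribosomal protein values was not tested. The nuclear noncoding RNA Malat1 had 2664, 2077 and 2077 CPM in the knockout libraries, against 697, 651 and 735 CPM in the control libraries (log2 fold change 1.70 with the block, adjusted p = 3.4e-05). Over all tested genes, the block called 1.57% higher and 2.23% lower. Summed OPC markers, all 15 with counts and none called with the block, spanned 3464 to 6621 CPM in knockout and 3478 to 5782 CPM in control. Endothelial markers, of which 9 of 12 were called higher with the block, summed to 50.6 to 337 CPM in knockout and 22.3 to 105 CPM in control. Choroid plexus and ependymal markers, 7 of 10 called higher, summed to 836 to 2764 CPM in knockout and 359 to 1886 CPM in control.

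Neuronal markers, of which 5 of 18 were called lower with the block and none higher, summed to 3978 to 5857 CPM in knockout and 4573 to 6452 CPM in control. For this and the next lists, the shares of all tested genes called were again 2.23% lower and 1.57% higher. Astrocyte markers, 5 of 12 called higher, summed to 2129 to 3847 CPM in knockout and 1847 to 3281 CPM in control. Pericyte and fibroblast markers, 2 of 11 called higher, summed to 152 to 1139 CPM in knockout and 108 to 729 CPM in control. Liver genes, of which 7 were called higher and 5 lower of 21, summed to 1023 to 2876 CPM in knockout and 464 to 1953 CPM in control. Ttr, the gene of transthyretin, is in both the choroid plexus and the liver list. It had 812, 670 and 2570 CPM in knockout and 247, 290 and 1746 CPM in control, so both sums are mostly this gene in every library. The 10 microglial markers, none of them called with the block, summed to 13.2 to 257 CPM in knockout and 14.2 to 260 CPM in control. In each same-numbered pair the knockout sum was lower for neuronal markers and higher for the endothelial, choroid plexus, astrocyte, pericyte and liver lists. For the OPC and microglial lists the pairs differed in direction. The 5 haemoglobin genes of the blood list were listed at 0 in all 6 libraries.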

How the data were processed

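Poly(A) RNA of 6 OPC libraries was sequenced as read pairs with a dUTP strand protocol, per the labels' protocols. The authors deposited raw read-pair counts per gene symbol; HISAT2 2.2.1, HTSeq 0.12.4, DESeq2 1.26.0 and build mm10 are named in the submitters' processing notes, while the strand setting and the annotation used are not stated there. The 5 summary entries of each file were left out of library sizes; the entry for pairs with no feature held 18.9% to 21.3% of all pairs.

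Counts of 26015604 to 28114968 per library were tested with edgeR 4.0.16 (R 4.3.3): TMM scaling, filterByExpr, quasi-likelihood test, two-sided, Benjamini-Hochberg over 15906 genes, called at an adjusted p under 0.05. The main fit had genotype alone. Same-numbered libraries were taken as pairs because their deviations correlated above 0.1 in all 3 pairs (0.712, 0.682 and 0.654); the labels do not say what a number marks. The biological coefficient of variation was 0.315 without and 0.104 with the block. The fitting scripts were tested on simulated data, where the blocked fit made more false calls than its nominal rate. DESeq2 1.42.0, limma 3.58.1, other scalings and filters, GC and length corrections in 20 bins, and left-out libraries were alternatives. Coordinates, GC content and lengths came from GENCODE M21 (GRCm38, which is mm10) for 23376 matched symbols and all 81 members; promoters of 60 members came from RefSeq.

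Named genes were the 6 members of smallest blocked adjusted p per subunit, every called member, the highest and lowest by CPM per kb, a fixed list by role, and up to 3 genes of each other list. Rpl8, Rpl15, Rpl21, Rpl26, Rpl30 and Rps3a1 were named outside these, after their values were seen. Members and lists were chosen with earlier results of these data known.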

Additional observations from a re-analysis of the deposited data

Results flagged for a closer look

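Outside the gene counts, 3 of the summary entries had all 3 knockout libraries above all 3 control libraries. Read pairs that fell on no annotated feature were 20.4%, 21.3% and 20.5% of all pairs in the knockout libraries, against 18.9%, 20.1% and 20.0% in the control libraries. Pairs with too low an alignment quality were 3.60%, 3.80% and 4.09% in knockout and 2.91%, 3.13% and 3.30% in control. Pairs that did not align were 1.16%, 1.20% and 1.39% in knockout and 0.962%, 0.977% and 1.14% in control. Ribosomal protein shares are given per gene count and leave these pairs out.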

How the results depend on the processing

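With genotype alone, 0 members were called under each alternative without the block, and with the replicate block 13 were. Of the other genes named, the block changed the calls of Prrc2b, Malat1 and Ttr and no other call. All values below have the block. Large-subunit calls (7) came to 12 with no filter, 17 with the length correction, 12 at an adjusted p under 0.1 and 1 at 0.01. Small-subunit calls (6) came to 3 with library totals, 3 with the upper quartile, 2 among genes of at least 5 CPM, 12 with the length correction and 0 at 0.01. Leaving out 1 pair gave 5 to 7 large-subunit and 2 to 5 small-subunit calls: 3 without replicate 1, 2 without replicate 2 and 5 without replicate 3. The length correction moved the medians to -0.19 (large) and -0.22 (small); the cause was not tested. No called value changed sign, and no scaling moved the median of all genes by more than 0.03; with library totals 63 of 76 members were negative, against 71 with TMM. With 3 libraries per group and shifts near 0.10 on the log2 scale, most members were within the error of the test, and Rps27, Rpl34 and the untested members had too few counts for a shift of this size; why these counts were low was not tested.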

Other observations

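The 13 called genes together took 0.205%, 0.229% and 0.224% of the gene counts in the knockout libraries, against 0.257%, 0.278% and 0.253% in the control libraries. The other 68 members took 1.43%, 1.55% and 1.53% in knockout and 1.504%, 1.65% and 1.503% in control, so most of the ribosomal protein counts were in genes that were not called. The 13 were chosen by these values, which are a description.

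The 7 symbols ending in -ps of the same families, which the symbol rule dropped, together took 0.00762% ± 0.000166 of the gene counts in knockout and 0.00802% ± 0.000239 in control libraries (SD, n = 3 each).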
